A study of Mus musculus with 4 samples.

Results

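Odorant receptor transcripts were examined in sections of mouse olfactory bulb placed on Visium capture areas, where each barcoded spot takes up polyadenylated RNA from the tissue above it, which may be several cells or parts of cells. The receptors described are the rows of the count matrix whose symbol begins with Olfr and that had at least 10 unique molecular identifiers (UMIs, each counting 1 captured molecule) summed over all spots. This rule gave 90 receptors of 1135 Olfr rows and 32285 rows in all. A further 521 Olfr rows had between 1 and 9 UMIs and 524 had none. The 90 receptors held 2122 of 3729 Olfr UMIs (56.9%). Just inside the threshold lay 12 rows with 10 UMIs, among them Olfr1006, Olfr698, Olfr919 and Olfr1501, and just outside it 9 rows with 9 UMIs, among them Olfr73, Olfr1048, Olfr859 and Olfr965. The count that chose the receptors, and their coincidence with Omp, are therefore given as descriptions without a test.

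The study used 1 mouse of control genotype and 1 mutant mouse, both killed at 5 months. The mutant mouse had VEGF blocked at E13.5 by a transgenic soluble form of VEGFR1, driven in the brain by the tetracycline-regulated camk2a-tTa transgene. The labels do not say which of these alleles the control mouse carried. Fresh-frozen bulbs were cut coronally at 10 µm. The control mouse gave 2 capture areas, with 2 sections and 1 section, and the mutant mouse 2 capture areas with 2 sections each. The deposited matrix pools all areas, and the numbers 1 to 4 at the end of its barcodes match no sample label. The 4 libraries are reported by these numbers, no library stands for either mouse, and no comparison of the mice was made. Libraries 1 to 4 held 1662, 715, 1296 and 943 spots with at least 500 UMIs, and 13304973, 5223890, 12533691 and 9533952 UMIs in these. Of 2796 distinct barcode sequences, 1460 occurred in more than 1 library, since capture areas use the same set of spot barcodes.

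Odorant receptors are G protein-coupled receptors of olfactory sensory neurons, whose cell bodies lie in the nasal epithelium and whose axons run through the olfactory nerve layer to the glomeruli of the bulb. A mature sensory neuron expresses, as a rule, a single receptor from 1 allele, and axons of neurons with the same receptor converge on a few glomeruli. Receptor mRNA is made in the cell body and is also carried into the axon, so that receptor transcripts in a bulb section need not come from cells of the bulb. Omp encodes olfactory marker protein, the classic marker of mature sensory neurons.

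The receptors were sparse and unevenly spread over the libraries. Summed over the 90 receptors, library 1 held 1068 UMIs, library 2 held 373, library 3 held 308 and library 4 held 373. Per 1000000 UMIs of the library (CPM, with an exact 95% Poisson interval) this was 80.3 (75.5 to 85.2), 71.4 (64.3 to 79.0), 24.6 (21.9 to 27.5) and 39.1 (35.3 to 43.3). Libraries 1 and 2 were thus above library 4, and library 4 above library 3, beyond counting error. Library 1 exceeded library 3 by 3.27-fold (2.87 to 3.72), and the widest ratio was 2.05 (1.82 to 2.31) with library 3 left out. Omp followed the same order, at 115, 82.1, 34.5 and 65.0 CPM in libraries 1 to 4, and all Olfr rows together stood at 131, 116, 43.8 and 87.0 CPM. Each library is 1 capture area with no replicate, and the intervals cover counting error only. In such sums, fewer sensory neurons or axons in a section and less receptor RNA in each cannot be told apart.

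Most receptors were seen in several libraries, although few had enough UMIs to compare them singly. A UMI was found for 87 of the 90 receptors in library 1, 63 in library 2, 57 in library 3 and 67 in library 4. Of the 90, 34 were seen in all 4 libraries and 68 in at least 3. A receptor had a median of 15 UMIs over all libraries, and 59 had fewer than 20. Of the 8 receptors seen in a single library, all were seen in library 1. Libraries 1 and 2 held all UMIs of 15 receptors, and libraries 3 and 4 those of 2, namely Olfr316 and Olfr1508. Such counts were not made over all genes. With few UMIs per receptor and 1068 of 2122 receptor UMIs in library 1, they are not read as a trait of the receptors. The highest library was over 2-fold above the lowest for 88 of the 90 receptors, with 0.5 UMIs added to each count. The same held for 27.3% of all genes with at least 10 UMIs and for 60.8% of genes in the receptors' range of totals, 10 to 305 UMIs. Within this range the genes were not matched to the totals of the receptors, most of which lie near its lower end. The difference in share is therefore not read as a trait of the receptors.

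Olfr3 (ENSMUSG00000075384) was the receptor with the most UMIs, and it lay almost entirely in libraries 1 and 2. It had 191 UMIs in library 1, 113 in library 2, 0 in library 3 and 1 in library 4, or 14.4 CPM (12.4 to 16.5), 21.6 (17.8 to 26.0), 0 (up to 0.294) and 0.105 (0.00266 to 0.584). The intervals of the first pair of libraries lay far above those of the other two. With Olfr3 left out, the summed receptor level still differed 2.68-fold (2.35 to 3.06) between the highest and lowest library. Olfr287 went the same way, at 53, 19, 2 and 5 UMIs, and so did Olfr482 at 48, 13, 4 and 3, Olfr364-ps1 at 25, 13, 0 and 2, and Olfr1056 at 28, 7, 1 and 1. For each of these the CPM of libraries 1 and 2 lay above that of libraries 3 and 4, as the plot of the 12 most abundant receptors by library shows.

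**Figure D1:**
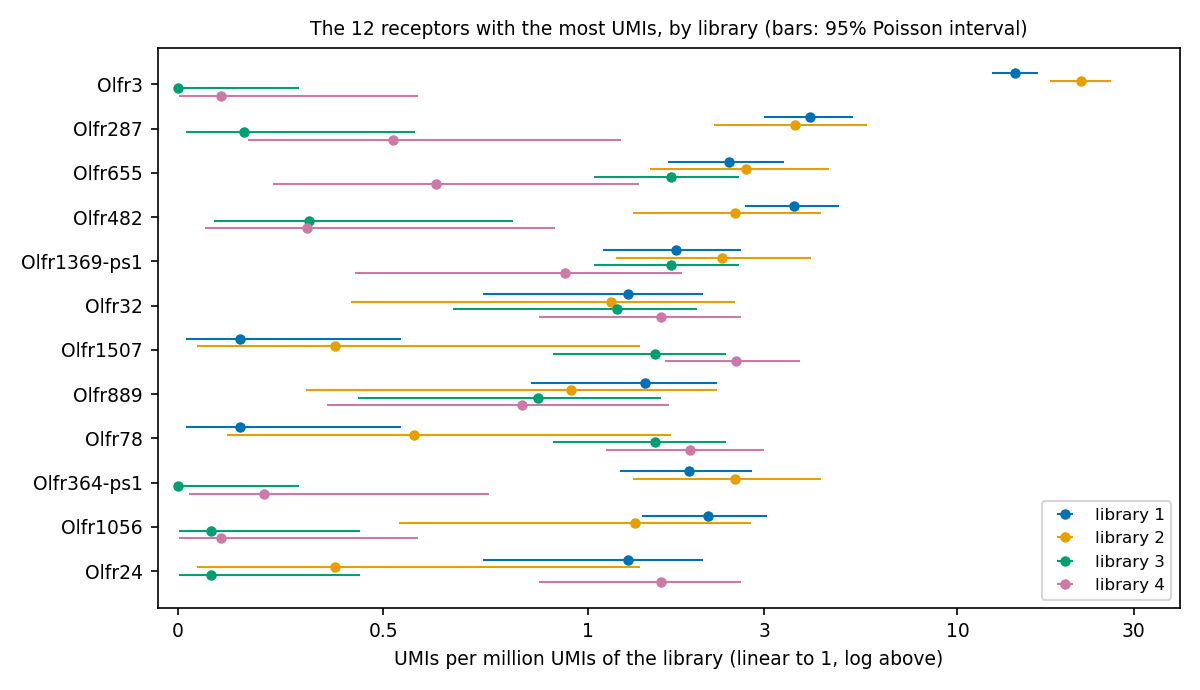
Level of the 12 receptors with the most UMIs in each library, in UMIs per 1000000 UMIs of the library on an axis that is linear up to 1 and logarithmic above; points are levels and bars 95% Poisson intervals. Olfr3 stands at 14.4 and 21.6 in libraries 1 and 2 against 0 and 0.105 in libraries 3 and 4, whereas Olfr1507 and Olfr78 lie higher in libraries 3 and 4.

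Other receptors had the opposite order. Olfr1507, also called MOR28, had 2, 2, 19 and 24 UMIs in libraries 1 to 4, or 0.150 CPM (0.0182 to 0.543), 0.383 (0.0464 to 1.38), 1.52 (0.913 to 2.37) and 2.52 (1.61 to 3.75). Its neighbour Olfr1508, also called MOR10, had 0, 0, 15 and 6 UMIs. Olfr536 had 3, 2, 15 and 14 UMIs. Most UMIs of these 3 receptors thus lay in libraries 3 and 4, while the receptors as a sum were lowest there. The intervals of library 2 overlapped those of library 3 for Olfr1507, and those of libraries 3 and 4 for Olfr536 and Olfr1508. For Olfr1508 the intervals of libraries 1 and 4 overlapped too. Olfr32, with 17, 6, 15 and 15 UMIs, and Olfr889, with 19, 5, 11 and 8, had overlapping intervals in all 4 libraries, and a difference was not detectable at this depth. Olfr24 had 17, 2, 1 and 15 UMIs and was high in libraries 1 and 4. The library with the highest level was taken for each of the 90 receptors, with 0.5 UMIs added to each count. It was library 1 for 34, library 2 for 25, library 3 for 6 and library 4 for 25. Such a count was not made over all genes, and with few UMIs per receptor it is not read as a trait of the receptors.

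Receptor UMIs lay mostly where Omp was found. Of 1041 spots with a receptor UMI, 431 (41.4%, exact binomial interval 38.4 to 44.5) also held an Omp UMI, against 22.8% of all spots. By library this was 49.4% (44.7 to 54.2), 36.6% (29.6 to 44.0), 29.9% (23.9 to 36.4) and 40.9% (34.0 to 48.1) in libraries 1 to 4. Spots without a receptor UMI held Omp in 17.7%, 13.7%, 16.2% and 21.3%. In every library the share was thus higher among receptor spots. Receptor spots were deeper, with median totals of 8525, 8314, 11067 and 10114 UMIs against 7516, 6679.5, 8637 and 9749 in spots without. All spots of a library, weighted to the depths of its receptor spots, held Omp in 31.0%, 22.6%, 19.7% and 26.9%. After each spot was thinned to 2000 UMIs (233, 89, 42 and 20 spots were too shallow for this), 48.9%, 40.3%, 18.0% and 36.8% of receptor spots held Omp, against 13.6%, 9.74%, 6.30% and 9.86% of all thinned spots.

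By molecules the coincidence was closer. Spots with Omp held 63.9% of receptor UMIs (61.9 to 66.0) and 23.3% of all UMIs. In libraries 1 to 4 they held 72.1%, 56.8%, 44.5% and 63.8% of receptor UMIs, and 26.2%, 21.2%, 19.3% and 25.4% of all UMIs. The receptor level in spots with Omp was 221, 191, 56.5 and 98.2 CPM, and in spots without it 30.3, 39.1, 16.9 and 19.0 CPM. The level was 5.70-fold (5.21 to 6.24) higher in Omp spots over the 4 libraries, by a Mantel-Haenszel rate ratio with the library as stratum, and 7.28-, 4.90-, 3.34- and 5.17-fold higher in libraries 1 to 4. With Omp spots defined by at least 2 Omp UMIs the ratio was 10.8 (9.92 to 11.8). Nearly the same value, with the same interval, came from calling Omp in thinned spots.

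The receptor level also rose with the number of Omp UMIs in the spot. In library 1 it was 30.3 CPM in spots without Omp, 62.8 with 1 Omp UMI, 142 with 2 to 4, 494 with 5 to 9 and 1832 with 10 or more. In library 2 the values were 39.1, 59.2, 169, 476 and 1687 CPM, and in library 4 they were 19.0, 28.4, 55.8, 412 and 910 CPM. Library 3 gave 16.9, 25.6, 48.9, 359 and 197 CPM, with 3 spots in its highest class, so that its last value was not distinguishable from the one before it. The few spots with at least 5 Omp UMIs, 79, 19, 15 and 25 in libraries 1 to 4, held 47.5%, 33.5%, 21.1% and 41.3% of receptor UMIs.

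**Figure D2:**
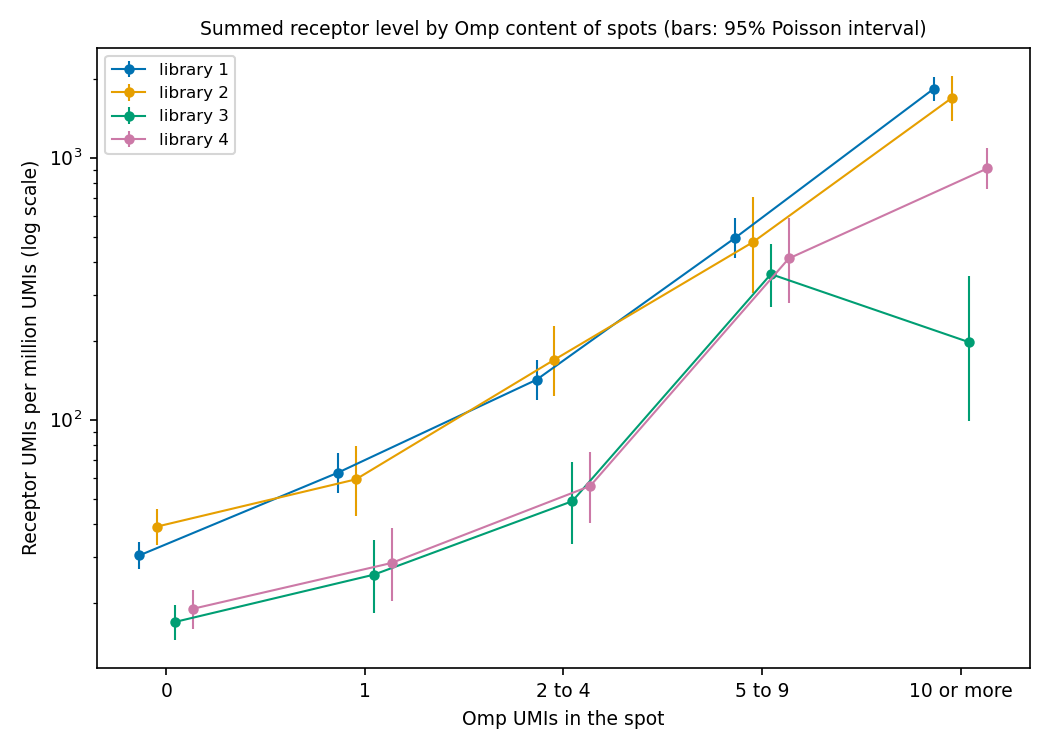
Summed level of the 90 receptors in UMIs per 1000000 UMIs (logarithmic axis) by the number of Omp UMIs in the spot, with 1 line per library and 95% Poisson intervals. The level climbs from 30.3 to 1832 in library 1, and in library 3 the class with 10 or more Omp UMIs rests on 3 spots.

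Spots rich in Omp held many receptors at the same time. Of the 1041 receptor spots, 795 (76.4%) held a single receptor of the 90, 136 held 2 and 110 held 3 or more. Only 55 spots held 5 or more, and these carried 649 of the 2122 receptor UMIs (30.6%). The richest spot, in library 2, held 19 of the 90 receptors with 41 UMIs, 46 Olfr rows in all and 54 Omp UMIs. The next, in library 1, held 17 receptors, 37 Olfr rows and 48 Omp UMIs. In libraries 3 and 4 no spot held more than 8 and 9 of the receptors. Spots with 10 or more Omp UMIs held a median of 7, 6, 2 and 5 of the 90 receptors in libraries 1 to 4.

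The sections also held transcripts of the nasal mucosa, the tissue in which the cell bodies of sensory neurons lie, although the labels name only the olfactory bulb. Genes of bulb layers were present in every library, such as Cdhr1 of mitral and tufted cells, at 775, 676, 348 and 319 CPM. A list of 18 mucosa genes, among them secretory Bpifb genes, odorant-binding proteins and the olfactory cytochromes Cyp2g1 and Cyp1a2, summed to 769, 145, 435 and 780 CPM in libraries 1 to 4. Spots with at least 3 UMIs of this list had a receptor level 4.90-fold (4.46 to 5.39) above other spots, and 5.68-, 5.94-, 2.93- and 4.48-fold in libraries 1 to 4. The list gene Gsta4 was found in 40.2% of spots, and without it the ratio was 6.55 (5.98 to 7.18). With a minimum of 10 mucosa UMIs it was 10.6 (9.67 to 11.5).

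The receptor level was highest where Omp and mucosa genes coincided. Spots with both held 63.0%, 40.8%, 39.6% and 59.5% of receptor UMIs in libraries 1 to 4, and 14.3%, 6.01%, 10.7% and 16.6% of all UMIs. Spots with neither, which are far more numerous, held 15.5%, 41.0%, 39.9% and 22.8% of receptor UMIs, as many as the spots with both in libraries 2 and 3. The receptor level in spots with both was 353, 484, 91.2 and 140 CPM. In spots with Omp and fewer than 3 mucosa UMIs it was 61.3, 75.6, 13.8 and 19.1 CPM, in spots with mucosa genes and no Omp 47.9, 29.4, 20.2 and 25.1 CPM, and in spots with neither 23.5, 39.8, 15.9 and 16.6 CPM. Without mucosa spots, the receptor level in Omp spots was 1.86-fold (1.57 to 2.21) above that in spots without Omp, and not 5.70-fold. The Omp spots left out in this way were also richer in Omp, at 686, 908, 216 and 329 CPM in libraries 1 to 4. Omp-only spots had 145, 181, 133 and 117 CPM of Omp. The parts of Omp content and mucosa content in the lower ratio were not tested. In libraries 3 and 4 the intervals of Omp-only spots (7.74 to 22.8 and 10.9 to 31.0) overlapped those of spots with neither (13.2 to 19.0 and 13.3 to 20.5). They also overlapped those of mucosa spots without Omp (14.9 to 26.8 and 18.6 to 33.1). A difference was not detectable in either comparison. The name of the receptors as transcripts in the bulb thus covers spots that also carry mucosa transcripts, and how many of the molecules lay in axons was not tested.

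Receptor by receptor, the coincidence with Omp split the 90 into unequal groups. With 0.5 UMIs added on each side, 76 of 90 receptors (84.4%) had a level over 2-fold higher in spots with Omp, 36 of them over 10-fold. The 2-fold rule called 7.79% of all genes with at least 10 UMIs and 17.1% of genes in the receptors' range of totals, which were not matched further. The share past 10-fold was not counted over all genes. The median over the 90 receptors was 7.61-fold, against 1.15-fold over genes in the same range of totals. For 10 receptors every UMI lay in an Omp spot, which was not counted over all genes either. The other 14 receptors were at or under 2-fold, and 4 of these (Olfr316, Olfr78, Olfr920 and Olfr77) had a ratio under 1. The interval of the ratio lay below 1 for Olfr78 (0.0819 to 0.860), and included 1 for Olfr316 (0.0200 to 1.21), Olfr920 (0.164 to 2.02) and Olfr77 (0.289 to 1.68). The groups are split by the value described, so no test sets them against each other on it.

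**Figure D3:**
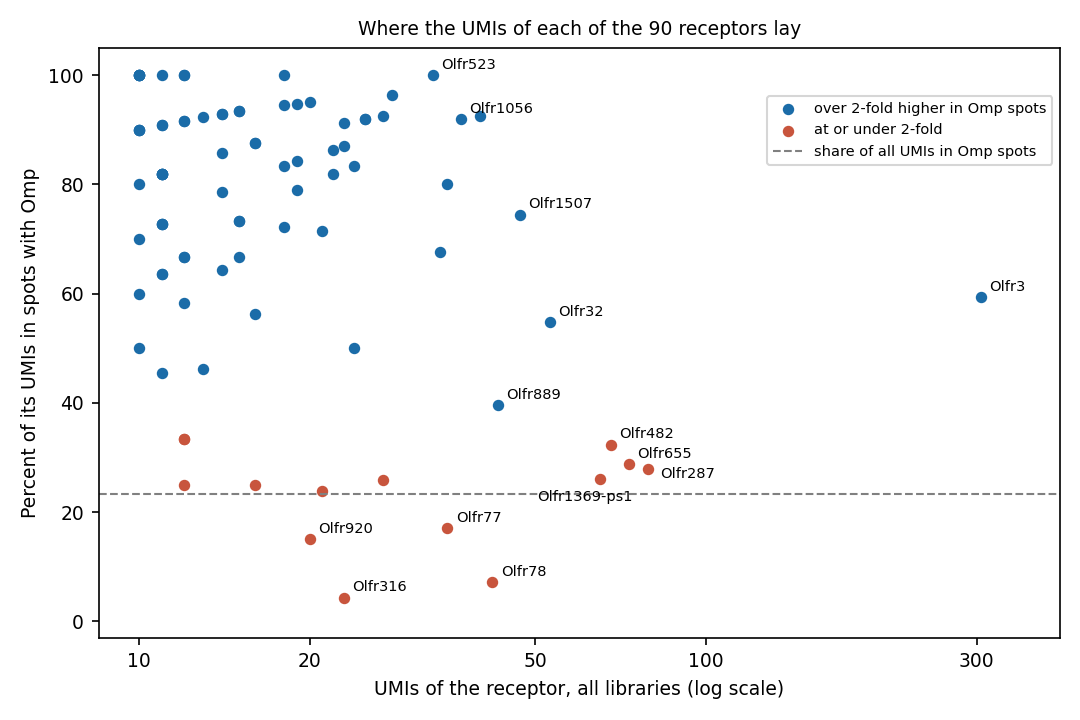
Percent of each receptor's UMIs that lay in spots with Omp against its UMIs over all libraries (logarithmic axis), 1 point per receptor, coloured by whether its level was over 2-fold higher in Omp spots. The dashed line is the share of all UMIs in those spots, 23.3%. Olfr287, Olfr655, Olfr482 and Olfr1369-ps1 lie between 26.2% and 32.4%.

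Among the 76 receptors, Olfr523, Olfr1056 and Olfr364-ps1 were nearly confined to Omp spots. Olfr523 had 31, 0, 0 and 2 UMIs in libraries 1 to 4, and all 33 lay in Omp spots. Of the 37 UMIs of Olfr1056, 91.9% lay there, as did 92.5% of the 40 of Olfr364-ps1, a predicted pseudogene by its symbol. Olfr969, with 28 UMIs, all in library 1, had 96.4% in Omp spots. Olfr1507 and Olfr1508 had 74.5% and 71.4%. These are clearly above the 23.3% of all UMIs, and a median of 86.5% of a receptor's UMIs lay in mucosa spots over the 76, where 30.9% of all UMIs lay. Olfr889 was the lowest of the 76, with 39.5% of its 43 UMIs in Omp spots.

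Leaving Olfr3 apart, the other 75 receptors of this group set the pattern over spot kinds. In spots with Omp and mucosa genes they stood at 285, 395, 82.2 and 133 CPM in libraries 1 to 4. In spots with Omp only they stood at 20.2 (13.8 to 28.6), 18.9 (10.6 to 31.2), 8.30 (3.80 to 15.7) and 13.1 (6.55 to 23.5), and in spots with neither at 5.95 (4.29 to 8.04), 7.02 (4.63 to 10.2), 6.33 (4.69 to 8.37) and 8.60 (6.25 to 11.5). These receptors were grouped by their level in Omp spots, so a higher level there is no separate finding. Spots with at least 2 Omp UMIs and few mucosa UMIs, 41, 25, 24 and 15 in number, held 14, 8, 4 and 3 UMIs of these receptors, or 38.9, 46.2, 18.1 and 22.6 CPM. Ensheathing glia genes, a list of 8 that marks the nerve layer, were highest in spots with Omp and mucosa genes, at 5648, 7439, 5845 and 5603 CPM. They summed to 2607, 3601, 4026 and 3077 CPM in spots with Omp only, and to 1528, 1639, 2079 and 2038 CPM in spots with neither. In spots with mucosa genes and no Omp they stood at 2130, 3047, 3441 and 2854 CPM. The part of nerve layer content in the receptor level was not tested.

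**Figure D4:**
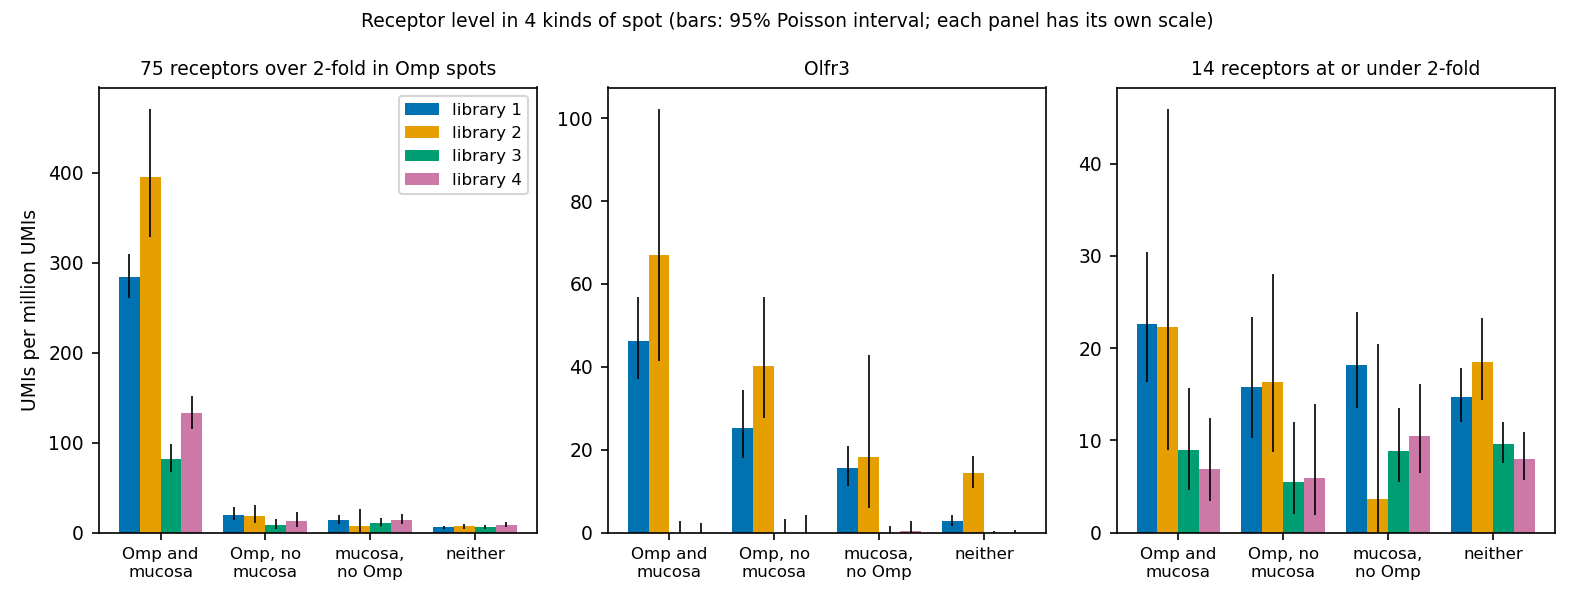
Level in UMIs per 1000000 UMIs of 75 receptors over 2-fold higher in Omp spots (left), of Olfr3 (middle) and of the 14 receptors at or under 2-fold (right), in 4 kinds of spot and by library, with 95% Poisson intervals; each panel has its own scale. The 75 receptors reach 395 where Omp and mucosa genes coincide, Olfr3 keeps 25.3 and 40.3 with Omp only in libraries 1 and 2, and the 14 lie between 3.67 and 22.6.

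Olfr3 was found in 180 spots, 115 in library 1 and 64 in library 2. In 101 of the 180 it was the only receptor of the 90, a smaller share than for Olfr287 (50 of 71 spots), Olfr655 (54 of 69), Olfr1369-ps1 (47 of 63) or Olfr32 (33 of 47). Its level was 46.2 and 66.9 CPM in spots with Omp and mucosa genes of libraries 1 and 2, 25.3 (18.1 to 34.4) and 40.3 (27.6 to 56.9) with Omp only, and 2.83 and 14.3 (10.8 to 18.6) with neither. From Omp-only spots to spots with both, Olfr3 therefore rose less than 2-fold, where the other 75 receptors stood at 20.2 against 285 and at 18.9 against 395 CPM. By Omp content, Olfr3 in library 1 went from 6.42 CPM without Omp through 23.0, 45.2 and 37.7 to 136 with 10 or more Omp UMIs. In library 2 the values were 14.6, 30.9, 55.2, 179 and 117 CPM, and the intervals of the highest pair of classes overlapped in library 2.

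Single spots held much Olfr3 with no other receptor. The spot with most had 19 Olfr3 UMIs, in library 1, with no Omp UMI and no other Olfr row, and with 61 mucosa UMIs. The next had 11 UMIs with 1 Omp UMI, 2 mucosa UMIs and no other Olfr row, and a spot of library 2 had 7 with 1 Omp UMI and 1 mucosa UMI. In these 3 spots the sensory neuron gene S100a5 had 8, 8 and 13 UMIs and Th, the tyrosine hydroxylase gene of periglomerular dopamine neurons, 8, 11 and 10. A further spot of library 1 also had 7 Olfr3 UMIs, but with 14 other receptors, 39 Omp UMIs, 138 S100a5 UMIs and 2 Th UMIs. Olfr3 was thus high in both kinds of spot, those with a mixture of receptors and those without.

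The spots with Olfr3 as their only receptor can be set beside those with any of the 75 receptors and no Olfr3. In library 1, 54 and 174 such spots had S100a5 at 1100 and 2383 CPM, Omp at 121 and 435 CPM and Th at 823 and 626 CPM. In library 2, 46 and 53 such spots had S100a5 at 1096 and 1808 CPM, Omp at 90.8 and 374 CPM and Th at 667 and 399 CPM. Spots without any receptor had S100a5 at 419 and 401, Omp at 37.8 and 27.2 and Th at 560 and 539 CPM. The sets are not alike in make-up: the 75 receptors were grouped by their level in Omp spots and their spots can hold several receptors, while the Olfr3 set leaves out every spot with another receptor. The lower Omp and S100a5 of the Olfr3 spots are therefore in part fixed by the choice of sets. Mucosa spots made up 57.4% and 68.4% of the first pair of sets in library 1, and 8.70% and 35.8% in library 2.

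Some other receptors also had 5 or more UMIs in a single spot. Olfr523 had 11 of its 33 UMIs in 1 spot with 13 other receptors. Olfr1507 and Olfr364-ps1 had up to 7 UMIs in a spot. Olfr1257 had 7 of its 19 UMIs in a spot of library 3 with 1 Omp UMI and no other receptor of the 90. Olfr16 had up to 6, and Olfr1388 and Olfr6 had 6 each in the same spot of library 4, which held 42 Omp UMIs. None of the 14 receptors at or under 2-fold exceeded 4 UMIs in a spot.

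For 4 pairs of receptor genes with nearby symbol numbers, the spots with a UMI of both were counted, and these small numbers were not tested. Olfr1507 was found in 32 spots and Olfr1508 in 11, with 1 in common. Olfr522 was found in 18 and Olfr523 in 15, with 3 in common that held 8 of the 33 UMIs of Olfr523, and Olfr286 in 11 and Olfr287 in 71, with 2 in common. Olfr1388 and Olfr1389, in 5 and 11 spots, shared none.

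The 14 receptors at or under 2-fold in Omp spots were Olfr287, Olfr655, Olfr482, Olfr1369-ps1, Olfr78, Olfr77, Olfr110, Olfr316, Olfr624, Olfr920, Olfr1344, Olfr1294, Olfr1301 and Olfr1423. A median of 25.5% of their UMIs lay in Omp spots, with a range of 4.35% to 33.3%. As a sum they stood at 16.7, 17.6, 9.02 and 8.18 CPM in libraries 1 to 4, and the other 76 at 63.6, 53.8, 15.6 and 30.9 CPM. By other genes of the spots, the level of the 14 was modestly higher in the 10% of spots richest in mural cell genes, at 1.49-fold (1.14 to 1.96) over other spots, in red blood cell genes, at 1.43-fold (1.08 to 1.88), in sensory neuron genes, at 1.40-fold (1.04 to 1.88), and in mucosa genes, at 1.38-fold (1.05 to 1.83). The part of vessel, blood or nerve layer content in this was not tested. Both groups were higher in libraries 1 and 2 than in libraries 3 and 4. For the 76 this rested on Olfr3 where library 2 is set against library 4. Without Olfr3 the other 75 stood at 32.2 CPM (27.5 to 37.4) in library 2 and 30.8 (27.4 to 34.6) in library 4, and the intervals overlapped. In spots with Omp and mucosa genes the 14 stood at 22.6, 22.3, 8.97 and 6.94 CPM, and in spots with neither at 14.7, 18.5, 9.57 and 8.01 CPM. This evenness follows in large part from how the 14 were grouped. The 14 receptors and Olfr3 made up 72.8%, 82.0%, 55.6% and 46.7% of the receptor UMIs in spots without Omp.

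Of the 5 most abundant receptors, all but Olfr3 belong to this group. Olfr287 (ENSMUSG00000090129) had 79 UMIs in 71 spots, 27.8% of them in Omp spots. Olfr655 had 32, 14, 21 and 6 UMIs in libraries 1 to 4 with 28.8% in Omp spots, and Olfr482 had 68 UMIs with 32.4%. Olfr1369-ps1, with 23, 12, 21 and 9 UMIs, had 26.2%. These shares lay between the 23.3% of all UMIs and 33.3%. For each of them the spot with most held at most 4 UMIs.

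Olfr78 and Olfr316 had the lowest shares in Omp spots. Olfr78 (ENSMUSG00000043366), a receptor of class I that is known from oxygen-sensing cells of the carotid body and from vascular smooth muscle, had 2, 3, 19 and 18 UMIs in libraries 1 to 4. Only 3 of the 42 UMIs lay in Omp spots (7.14%), and its level there was 0.265-fold that in other spots. Olfr316 had 0, 0, 13 and 10 UMIs, with 4.35% in Omp spots. Both receptors thus had most of their UMIs in libraries 3 and 4. Of the 42 UMIs of Olfr78, 3 lay in the 10% of spots richest in genes of mural cells, a ratio of 0.896 (0.274 to 2.93) over other spots. For a list of forebrain excitatory neuron genes (Nrgn, Camk2a, Neurod6 and Slc17a7), chosen after the values were seen, 23 UMIs lay in the richest spots, a ratio of 6.56 (3.55 to 12.1), and for Olfr316 the ratio was 2.70 (1.14 to 6.40). The mitral and tufted cell list, which also holds Slc17a7, gave 2.12 (1.06 to 4.22) for Olfr78 and 1.70 (0.628 to 4.58) for Olfr316. Olfr920, with 2, 2, 6 and 10 UMIs, and Olfr77, with 14, 9, 10 and 2, had 15.0% and 17.1% of their UMIs in Omp spots.

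Receptors of both groups overlap other genes or have near copies in the annotation. In GENCODE M21 (GRCm38), which holds all 90 receptors, 6 of the 14 and 3 of the 76 overlap another gene. On the same strand, Olfr287 overlaps Gm44579, Olfr482 overlaps Gm44870, Olfr1344 overlaps Gm20715 and Olfr78 overlaps Olfr560. On the opposite strand, Olfr77 overlaps Gm7808 and Olfr1423 overlaps Gm44859. A transcript stretch of at least 90 bases with at least 98% identity to another receptor was found for 3 of the 14 and 4 of the 76, among them Olfr287 with Olfr288, Olfr1369-ps1 with Olfr263 and Olfr78 with Olfr560. The counts of these receptors are uncertain, as their reads can belong to the other gene. Overlaps and near copies were not counted over all Olfr rows. Resting on few genes, these numbers are not read as a difference between the groups. Without the 14 receptors that have an overlap or a near copy, a set that differs from the 14 above, the remaining 76 had 69.9% of their UMIs in Omp spots and a level 7.49-fold (6.74 to 8.32) higher there. Olfr3, Olfr655 and Olfr1056 had neither.

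Odorant receptors fall into class I, the family shared with fish, and the larger class II. By the family numbers in the MOR names of RefSeq, 87 of the 90 could be classed, and 6 of these (6.90%) were of class I, against 11.8% of 1104 classed Olfr rows. The 6 class I receptors had 66, 29, 52 and 40 UMIs in libraries 1 to 4, of which 33.2% lay in Omp spots, and 3 of 6 were over 2-fold higher there. The 81 class II receptors had 978, 334, 256 and 315 UMIs, with 66.4% in Omp spots, and 70 of 81 were over 2-fold. Olfr78 and Olfr655, both at or under 2-fold, hold most of the class I UMIs.

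Promoters are shown for 4 receptors because the receptors divided by their coincidence with Omp, and receptor promoters in sensory neurons are known for sites of homeodomain proteins such as LHX2 and EMX2 and of EBF proteins. The sequences are the 250 bases before the RefSeq start in GRCm38.p6, printed 5′ to 3′ on the gene's strand, with motif matches on either strand in capitals. Olfr16, also called MOR23, lies on the plus strand (chr1:172956518-172956767), and Olfr1056 (chr2:86356438-86356687), Olfr1508 (chr14:52467462-52467711) and Olfr287 (chr15:98221057-98221306) on the minus strand. The capitals mark TAATGA in Olfr16 and Olfr1508, TAATTG in Olfr1056 and TCCCNNGG, the EBF-like motif, in Olfr287.
Olfr16: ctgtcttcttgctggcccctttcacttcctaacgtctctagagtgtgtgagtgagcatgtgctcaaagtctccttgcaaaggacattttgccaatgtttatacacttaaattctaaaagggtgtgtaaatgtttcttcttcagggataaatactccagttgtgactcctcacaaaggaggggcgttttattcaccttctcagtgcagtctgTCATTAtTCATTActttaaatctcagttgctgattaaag
Olfr1056: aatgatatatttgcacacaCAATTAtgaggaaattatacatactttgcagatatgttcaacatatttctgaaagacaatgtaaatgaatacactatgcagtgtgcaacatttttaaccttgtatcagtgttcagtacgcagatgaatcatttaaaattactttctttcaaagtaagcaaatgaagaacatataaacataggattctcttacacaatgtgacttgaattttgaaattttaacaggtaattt
Olfr1508: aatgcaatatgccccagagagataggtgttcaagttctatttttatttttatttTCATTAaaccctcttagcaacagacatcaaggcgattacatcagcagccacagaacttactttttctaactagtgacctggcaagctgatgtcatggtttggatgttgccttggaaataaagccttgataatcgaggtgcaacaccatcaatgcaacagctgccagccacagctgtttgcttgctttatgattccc
Olfr287: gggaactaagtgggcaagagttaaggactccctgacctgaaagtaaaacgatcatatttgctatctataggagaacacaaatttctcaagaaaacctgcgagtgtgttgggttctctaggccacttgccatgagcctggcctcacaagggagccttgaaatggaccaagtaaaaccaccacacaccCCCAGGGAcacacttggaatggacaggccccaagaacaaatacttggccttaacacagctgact
Of these, Olfr16 with 14, 1, 0 and 8 UMIs, Olfr1056 and Olfr1508 were over 2-fold higher in Omp spots, and Olfr287 was not. Only 23 of the 90 receptors have an entry whose start lies within 50 bases of the GENCODE start and before the coding sequence, since 44 entries begin at the coding start. Motifs were searched on both strands of the 250 bases before the start. The homeodomain-like motif TAATGA was found in 7 of the 23, in 31.3% of 262 Olfr promoters and in 8.59% of all 32851 promoters. A further motif of this kind, TAATTG, was found in 6, in 26.0% of Olfr promoters and in 7.17% of all promoters. The palindrome TAATTA was found in 4, in 17.6% of Olfr promoters and in 4.84% of all promoters. Any of these 3 was found in 15 of the 23, against 55.7% of Olfr promoters and 18.0% of all promoters. TCCCNNGG was found in 8 of the 23, in 11.8% of Olfr promoters and in 19.0% of all. The 3 homeodomain-like motifs share their first 4 letters. A match is a description of the letters only, and with 2 windows from the group at or under 2-fold the groups cannot be compared.

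Receptors with glomeruli mapped by gene targeting were mostly below the threshold. Of a list of 8, Olfr16 had 23 UMIs, 21 of them in Omp spots. Olfr73 had 9 UMIs, Olfr17 had 6, Olfr15 and Olfr2 had 5 each, Olfr545 had 4 and Olfr160 had 3, and between 2 and 8 UMIs of each lay in Omp spots. Olfr151 was not analysed here. All 5 UMIs of Olfr15 lay in library 4, and those of Olfr17 in libraries 1 and 2, on counts too small to compare. Of the receptors known from tissues outside the nose, Olfr558 had 8 UMIs with 5 in Omp spots, Olfr544 had 7 with 6, and Olfr1393 had 4 with none.

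The other genes of spots with receptors were those of sensory neurons and of the mucosa. Of the 10 genes with the highest ratio between spots with and without a receptor UMI, Cnga2 and Cnga4, channel subunits of olfactory transduction, stood at 12.6-fold (9.14 to 17.5) and 8.67-fold (6.30 to 11.9). Stoml3, a stomatin-like protein of sensory neuron cilia, stood at 10.2-fold and Gfy, which encodes a Golgi protein of these neurons, at 10.2-fold. The mucosa enzymes Sult1c1, Cyp1a2, Cyp2g1, Cyp2a5 and Pon1 stood between 8.71- and 11.5-fold, and Umodl1 at 12.6-fold. All 10 were over 2-fold higher in each of the 4 libraries. Over all genes 3.84% passed 2-fold, and the median was 0.984-fold.

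By list, the genes of mature sensory neurons and of the mucosa were the most raised in receptor spots. Of 16 such genes, 11 were over 2-fold higher in receptor spots, with a median of 4.63-fold. They include S100a5 at 3.55-fold, Gng13, a G protein subunit, at 2.16-fold and Ano2, a chloride channel of transduction, at 8.67-fold. The other 5 were at or under 2-fold, such as Slc24a4 and Nsg1 at 1.44 and 0.983. Of 17 measured mucosa genes, 13 passed, with a median of 5.40-fold, but Obp1a and Obp1b of nasal glands, which lay almost only in library 1, stood at 0.751- and 0.862-fold.

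Of 14 genes of receptor choice and trafficking, 7 passed 2-fold. Rtp1 and Rtp2, which carry receptors to the cell surface, stood at 5.83- and 7.83-fold, Ebf2 at 4.96-fold and Atf5, a factor of the receptor feedback signal, at 2.94-fold. Lhx2, Ldb1 and Kdm1a, which act in receptor choice, stood at 1.22-, 0.928- and 0.912-fold, and these are also expressed by cells of the bulb. Of 15 genes of axon sorting, Kirrel2, an adhesion molecule whose level in sensory neurons depends on activity, at 5.11-fold and Nqo1, an enzyme that marks axons of the dorsal zone, at 2.47-fold passed. Kirrel3, Nrp2 and Robo2 stood at 0.950-, 0.955- and 0.953-fold. Of the immature sensory neuron list only Gng8 passed, at 2.34-fold, whereas Gap43 stood at 0.999-fold.

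Lists of ensheathing glia and of bulb neurons lay on either side of 1, and none of their genes passed 2-fold. Ensheathing glia had a median of 1.41-fold, with Fabp7 at 1.72 (1.67 to 1.78), Apod at 1.59 (1.56 to 1.62) and Sox10 at 1.45 (1.31 to 1.60). Granule cells had a median of 0.752-fold, with Pcp4 at 0.753 (0.734 to 0.773), Meis2 at 0.752 (0.720 to 0.785) and Tac1 at 0.717 (0.559 to 0.920). Ensheathing glia genes were thus raised and granule cell genes lowered in receptor spots beyond counting error. Periglomerular neurons had a median of 1.03 and mitral and tufted cells of 0.884. Red blood cell genes passed in 3 of 3, with a median of 2.10-fold. Of 4 mural cell genes 1 passed, Tagln at 2.40-fold, and the median was 1.77-fold. Microglia genes had a median of 1.16-fold. The part of blood or vessel content in the receptor level was not tested.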

How the data were processed

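Visium libraries of olfactory bulb were analysed from a single matrix of UMI counts, whole numbers for each gene in each spot, which the authors deposited and for which the file headers name Space Ranger 1.3.1. The submitters' processing notes name GRCm39, but 32235 of 32285 gene identifiers are in GENCODE M21 (GRCm38), so the build is uncertain; no source used here gives filters or strand handling. Spots with at least 500 UMIs were kept, 97 of 4713 being left out with none of the receptor UMIs. UMIs were summed per library and set over all UMIs (CPM), with exact Poisson, exact binomial (Clopper-Pearson) and conditional binomial intervals at 95%, and Mantel-Haenszel rate ratios with the library as stratum. For single genes, 0.5 UMIs were added on each side for counts of genes past a fold and for medians of folds over genes. The same was added to each library count to find the highest library of a receptor. Intervals cover counting error only, and no p-value was computed because each library is 1 capture area of unknown mouse.

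The members, gene lists and named genes were chosen with earlier results of these data known. Named were the 12 receptors with the most UMIs, up to 6 with at least 5 UMIs in a spot, the 6 with the lowest share in Omp spots, the fixed receptor lists, rows at the threshold and the 10 genes most raised in receptor spots among those with at least 200 UMIs; examples beyond these were chosen after their values were seen. The share of UMIs in spots with any sensory list gene was planned for naming but not used, as 94.2% of spots hold one. Near copies were judged on transcripts, not on proteins as planned. Scripts ran in Python 3.11.15 with numpy 2.4.6, scipy 1.17.1 and pandas 2.3.3, and were tested on simulated data. Promoter sequences are those of RefSeq (GRCm38.p6), found for 71 of the 90 receptors.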

Additional observations from a re-analysis of the deposited data

How the results depend on the processing

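Of 79 alternative values of the 7 main results, 45 stayed within the interval of the main value (counts within 1.5 times) and 34 moved. Only the folds in Omp spots and in mucosa spots could change direction, and 0 of them did. The cause of a move was not tested. With receptors of at least 20 UMIs (31), 56.2% of receptor UMIs lay in Omp spots, the fold in Omp spots was 4.12 and in mucosa spots 3.47, and 21 and 29 receptors passed 2-fold in Omp spots and between libraries. With all 611 Olfr rows that have a UMI these values were 71.2%, 7.96, 6.62, 500 and 600. Of these rows 521 have 1 to 9 UMIs, where very few UMIs in a single library or in Omp spots can be enough to pass 2-fold. The share of all genes past 2-fold was not counted at such totals. The counts of 500 and 600 are therefore not read as a trait of the receptors. Without Olfr3 the ratio between libraries was 2.68. Without library 1 the share of receptor spots with Omp was 35.5%, the share of UMIs 55.7%, the fold in Omp spots 4.48 and in mucosa spots 4.20; without library 3 the ratio between libraries was 2.05, the shares 44.5% and 67.3% and the mucosa fold 5.42. With at least 2 Omp UMIs the shares were 25.6% and 51.9% and the fold 10.8, and with Omp called in thinned spots 22.7%, 48.7% and 10.8. Without mucosa spots they were 21.3%, 26.3% and 1.86. The mucosa fold was 10.6 with at least 10 mucosa UMIs. The following were chosen after seeing the data: without Gsta4 the mucosa fold was 6.55; without the 14 receptors at or under 2-fold the ratio between libraries was 4.09 and 54.6% of receptor spots held Omp; and without receptors with an overlap or near copy 69.9% of UMIs lay in Omp spots, with a fold of 7.49. No paired analysis was possible because the barcode numbers match no sample label, so the planned replicate block was not run. Depth limits single receptors most: 59 of 90 have fewer than 20 UMIs, and a library without a UMI still allows 0.277 to 0.706 CPM.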

Other observations

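Other chemosensory receptor families were sparser. Vomeronasal receptors of the Vmn1r family had 320 UMIs over 23 of 209 rows, of which Vmn1r206 alone had 203, and 16.6% lay in Omp spots. The Vmn2r family had 187 UMIs over 26 of 124 rows, with 21.9% in Omp spots, near the 23.3% of all UMIs. In libraries 1 to 4 the Vmn1r family had 131, 42, 70 and 77 UMIs and the Vmn2r family 55, 28, 59 and 45. Over all Olfr rows 71.2% of UMIs lay in Omp spots. Trace amine receptors had 5 UMIs, all in library 3, with 80% in Omp spots, and formyl peptide receptors 12, with 41.7%, on counts too small to compare.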
